A study of Mus musculus with 72 samples.

Results

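Prkca and Prkcb encode protein kinase C alpha and protein kinase C beta, and they are 2 of the 1266 genes measured in mouse brain cortex with the NanoString nCounter system, in which barcoded probes bound to RNA are counted one by one. The genes were taken by name from the deposited log2 values as kinases activated by diacylglycerol, and they were chosen also by their large measured difference between P522R and 5xFAD mice, so every value of that contrast for these genes is given below as a description with no test. The study compared variants of the phospholipase gene Plcg2 in 36 mice of 7.5 months, all of them carrying the 5xFAD transgenes, human amyloid precursor and presenilin genes with familial mutations that produce amyloid plaques. The 3 genotypes were 5xFAD alone, 5xFAD with the M28L variant and 5xFAD with the P522R variant. Each had 6 females and 6 males. Mice without 5xFAD were not analysed here, so no value below is set against a plaque-free cortex, and the labels used here do not give the zygosity of the variants. The mice are separate animals by their numbers in the labels, except that a pair of M28L females share the animal number 14 under different index numbers and were kept as separate mice.

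Phospholipase C enzymes cut the membrane lipid PIP2 into inositol trisphosphate, which releases calcium from internal stores, and diacylglycerol, which stays in the membrane. The classical protein kinase C enzymes, among them alpha and beta, need both calcium and diacylglycerol, and so read out both products of that cut. In brain they phosphorylate synaptic, cytoskeletal and receptor proteins, and the alpha and beta forms are found in neurons as well as in other cells. The values come from whole cortex, so fewer cells of a type and less RNA per cell cannot be told apart.

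The promoters of both genes are shown because the transcripts moved together from mouse to mouse. The sequences are RefSeq promoters on GRCm38.p6 and hold 250 bases before and 50 after the start of each gene, read 5′ to 3′ on the gene's strand. Prkca lies on the minus strand at chr11:108343839-108344138 and Prkcb on the plus strand at chr7:122288875-122289174. Capitals mark GC boxes, GGGCGG on either strand.
Prkca: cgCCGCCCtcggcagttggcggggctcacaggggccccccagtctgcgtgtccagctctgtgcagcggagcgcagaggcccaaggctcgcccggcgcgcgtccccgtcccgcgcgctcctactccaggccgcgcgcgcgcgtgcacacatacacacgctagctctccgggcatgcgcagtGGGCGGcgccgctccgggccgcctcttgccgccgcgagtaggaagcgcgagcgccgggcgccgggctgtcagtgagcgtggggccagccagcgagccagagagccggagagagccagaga
Prkcb: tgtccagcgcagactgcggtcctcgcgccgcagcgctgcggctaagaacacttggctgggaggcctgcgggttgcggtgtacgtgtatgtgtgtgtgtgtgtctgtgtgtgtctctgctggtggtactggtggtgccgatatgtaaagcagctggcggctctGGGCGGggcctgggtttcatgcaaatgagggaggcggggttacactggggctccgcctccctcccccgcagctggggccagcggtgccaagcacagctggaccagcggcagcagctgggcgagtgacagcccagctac
Both windows were rich in G and C, 75.3% of bases for Prkca and 65.3% for Prkcb, against a median of 52.7% over 32851 RefSeq promoters of this length. CG dinucleotides numbered 42 in Prkca and 19 in Prkcb, against a median of 7. Prkca held 2 GC boxes, beginning at -248 and -70 with the start site as 0, and Prkcb held 1, beginning at -88. That motif occurred in 35.7% of all promoters, so sharing it does not set this pair apart. The E-box CAGCTG occurred 4 times in Prkcb and not in Prkca, and in 16.3% of all promoters. The letters GCATGCGC, part of the NRF1 motif, occurred once in Prkca and not in Prkcb, and in 2.71% of all promoters. Neither window held TATAAA, present in 13.6% of all promoters, or CCAAT, present in 37.4%. All these motifs were searched on both strands, and none is contained in another. A match is a description of the letters and not a measured binding site.

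Prkca was highest in males of the 5xFAD and M28L genotypes and lowest in P522R mice of both sexes. In 5xFAD females its deposited log2 value ran from 9.96 through a median of 10.05 to 10.19. In 5xFAD males it ran from 10.53 through 10.76 to 11.01. The lowest 5xFAD male thus lay above the highest 5xFAD female. In M28L females the values ran from 9.75 through 10.03 to 10.15, and in M28L males from 10.52 through 10.73 to 10.83. These ranges overlapped those of 5xFAD mice of the same sex. In P522R females Prkca ran from 8.61 through 9.00 to 9.83, and in P522R males from 8.82 through 9.45 to 9.86. All 12 P522R mice lay below every 5xFAD mouse of their sex. Over all genes 20.9% were called lower in P522R females and 23.8% in P522R males. The share of all genes that separated without overlap was not counted. A female at 9.83, numbered 54, and a male at 9.86, numbered 29, were the highest P522R mice of their sex.

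Prkcb gave the same picture on its own scale. In 5xFAD females it ran from 12.23 through a median of 12.39 to 12.47, and in 5xFAD males from 13.01 through 13.20 to 13.38. In M28L females it ran from 12.11 through 12.43 to 12.62, and in M28L males from 13.03 through 13.13 to 13.19. Again the females of both genotypes lay wholly below the males. In P522R females it ran from 11.18 through 11.36 to 12.10, and in P522R males from 11.59 through 11.99 to 12.37. All 12 P522R mice lay below every 5xFAD mouse of their sex for this gene too, a separation not counted over all genes. The highest mice were again the female numbered 54 and the male numbered 29. Probes differ in efficiency, so the levels of Prkca and Prkcb were not set against each other.

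**Figure D1:**
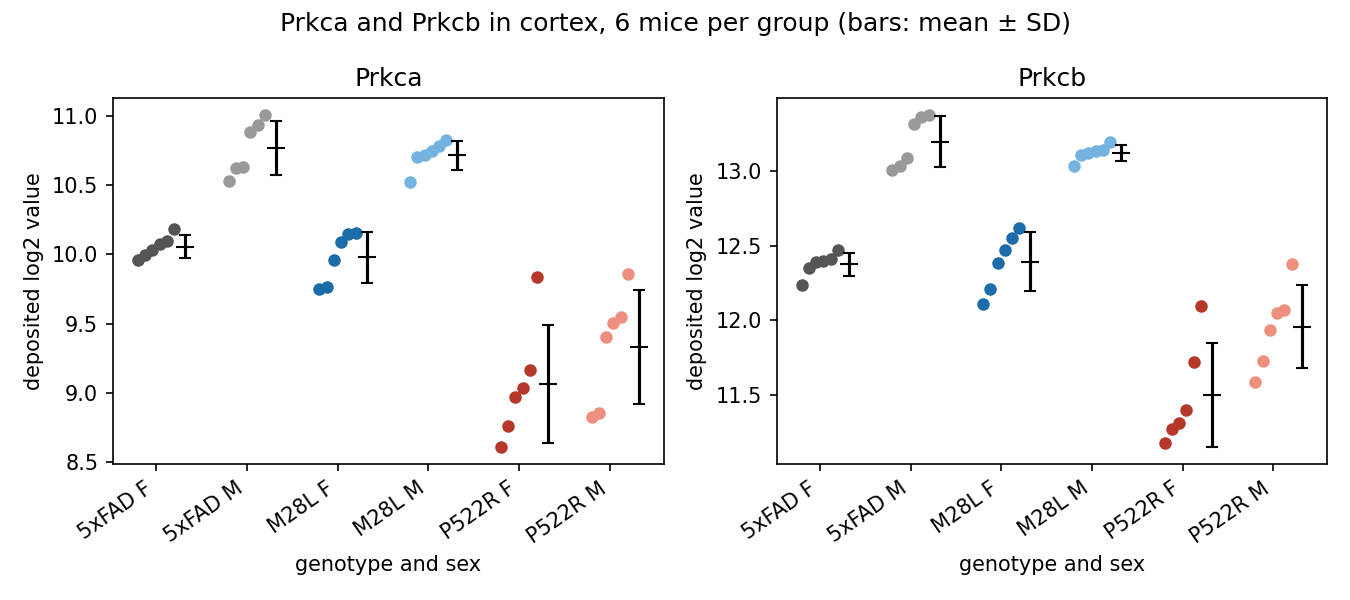
Deposited log2 values of Prkca (left) and Prkcb (right) on the y axes, by genotype and sex, with 1 point per mouse and a bar for the mean ± SD of 6 mice. For Prkca the P522R group means are 9.06 in females and 9.33 in males, against 10.06 and 10.77 in 5xFAD mice.

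By group mean, Prkca ordered as 5xFAD males at 10.77 ± 0.20 (SD, n = 6), M28L males at 10.72 ± 0.10, 5xFAD females at 10.06 ± 0.08, M28L females at 9.98 ± 0.19, P522R males at 9.33 ± 0.41 and P522R females at 9.06 ± 0.43. Neighbours in this order overlapped at every step except between M28L males and 5xFAD females, where the means were 0.66 apart. For Prkcb the order was 5xFAD males at 13.20 ± 0.17, M28L males at 13.12 ± 0.05, M28L females at 12.39 ± 0.20, 5xFAD females at 12.37 ± 0.08, P522R males at 11.96 ± 0.28 and P522R females at 11.50 ± 0.35. Here too the only neighbours that did not overlap were M28L males and the next group, M28L females, 0.73 apart. The P522R groups had the largest SD of the 6 for both genes, which was not tested.

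The genes of the larger panel, 757 of the 1266, and those of the smaller panel, 509, had each been multiplied by a constant per mouse, and the steps between values gave back the counts. Both protein kinase C genes lie on the smaller panel, where the totals ran from 237563 to 774198 counts per mouse. Depth differed between the groups: 274013 to 338173 counts in 5xFAD females, 462536 to 680262 in 5xFAD males, 404333 to 774198 in P522R females and 259284 to 672936 in P522R males. Prkca itself had 680 to 852 counts in 5xFAD females and 412 to 1571 in P522R females, which overlapped before scaling. In males it had 1116 to 2206 counts in 5xFAD and 203 to 1048 in P522R, which did not. Prkcb had 3296 to 4161 counts in 5xFAD females and 2352 to 7540 in P522R females, which overlapped and reached higher in P522R. The males had 6347 to 11261 counts in 5xFAD and 1524 to 5985 in P522R. Depth thus moved with sex and with genotype in females, and its part in the differences was not tested. The labels name no hybridisation run, so genotype and run cannot be told apart.

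The difference that led to the choice of these genes was as follows. Averaged over the sexes, P522R minus 5xFAD was -1.21 for Prkca (SE 0.10), a ratio of 2.32, and -1.05 for Prkcb (SE 0.08), a ratio of 2.08. Over all genes 24.9% were called lower and 40.5% higher in P522R mice at an adjusted p of 0.05 (limma, Benjamini-Hochberg over 1266 genes), and the median difference was 0.08. Prkca had the lowest value of all 1266 genes and Prkcb the third lowest. Against M28L mice the P522R difference was -1.15 for Prkca and -1.03 for Prkcb. These contrasts share the P522R mice.

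Markers of cortical cell types were read beside this difference, and all of them were detected, none with a mean under 20 counts. Of 19 measured excitatory and pan-neuron markers, 12 were called higher and 4 lower in P522R mice, where 40.5% of all genes were higher and 24.9% lower. By sex, 14 were higher and 2 lower in females, and 7 were higher and 6 lower in males. Their summed level ran from 75274 to 90088 in 5xFAD females and 95529 to 110038 in P522R females, and from 114963 to 121984 in 5xFAD males and 116979 to 134078 in P522R males. The neuron sum was higher in P522R females and overlapped in males. The median difference of these markers was 0.35 in females and -0.03 in males. Of 10 interneuron markers 3 were called higher and 6 lower, and their sums ran from 14899 to 16800 in 5xFAD females, 16298 to 18702 in P522R females, 21657 to 22940 in 5xFAD males and 22142 to 23454 in P522R males. Of 19 microglia markers 2 were called higher and 8 lower, and their sums overlapped, from 18492 to 28699 in 5xFAD and 13324 to 30402 in P522R mice. Of 8 astrocyte markers 5 were higher and 1 lower. Of 11 oligodendrocyte markers 5 were higher and 2 lower, and all 4 precursor markers were higher. Of 7 endothelial and mural markers 1 was higher and 2 were lower, with a median of 0.38 in females and -0.43 in males. The part of cell composition in the low values of Prkca and Prkcb was not tested.

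In M28L mice neither gene differed from 5xFAD mice beyond the spread between mice. M28L minus 5xFAD was -0.07 for Prkca (SE 0.10, 95% interval -0.27 to 0.14, adjusted p = 0.761, limma with Benjamini-Hochberg) and -0.03 for Prkcb (SE 0.08, interval -0.19 to 0.14, adjusted p = 0.876). Of the 12 M28L mice, 7 lay below and 5 above the 5xFAD mean of their sex for Prkca, and 8 below and 4 above for Prkcb. The test called 10.3% of all genes in this comparison, with a median difference of 0.0006. The SEs and intervals pool the spread of all 36 mice, among them the P522R groups, which had the largest SD. Without the P522R mice the SE was 0.06 for Prkca and 0.05 for Prkcb, and neither was called (adjusted p = 0.526 and 0.794, limma). The intervals limit a change to about the size of their ends, and the test does not show that the levels were equal. The M28L mice took no part in choosing the genes, but the 5xFAD mice did.

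Both genes were lower in females than in males, and so were most genes of the table. Averaged over the genotypes, female minus male was -0.57 for Prkca (SE 0.08, adjusted p = 1.07e-07, limma) and -0.67 for Prkcb (SE 0.07, adjusted p = 1.68e-11, limma). In 5xFAD and M28L mice the sexes did not overlap for Prkca and Prkcb, and also not for Prkce, Prkci and Prkcz. In P522R mice the sexes overlapped for Prkca and Prkcb. Over all genes 70.1% were called lower in females within 5xFAD and 66% within M28L mice. The share of all genes without overlap was not counted. The background is large: 83.7% of all genes were called lower and 2.69% higher in females, and the median difference was -0.38 over all genes and -0.50 on the smaller panel, to which both belong. Centring each panel of each mouse on its median left -0.10 for Prkca (adjusted p = 0.291, limma), which ended the call, and -0.20 for Prkcb (adjusted p = 0.00607), which kept it. With single mice left out the adjusted p ran from 7.59e-10 to 2.93e-07 for Prkca and from 1.54e-13 to 6.25e-11 for Prkcb, and over the other alternatives from 1.16e-11 to 0.291 and from 5.90e-13 to 0.00607. Depth, which was lower in 5xFAD and M28L females than in males, moved with this difference, and its part was not tested.

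The sexes were also compared within genotypes. For Prkca female minus male was -0.71 in 5xFAD, -0.74 in M28L and -0.27 in P522R mice (95% interval of the last -0.56 to 0.02). For Prkcb it was -0.82, -0.73 and -0.46. The values within P522R mice are descriptions, since these mice took part in the choice of the genes. Over all genes 68.8% were called lower in females within P522R mice. P522R minus 5xFAD was -0.99 in females and -1.44 in males for Prkca, and -0.87 and -1.24 for Prkcb. The difference between these values was 0.44 for Prkca (SE 0.21) and 0.36 for Prkcb (SE 0.16), and since it comes from the contrast that chose the genes it too is a description. The median over all genes was 0.10. For M28L the difference between the sexes was -0.03 for Prkca and 0.09 for Prkcb (adjusted p = 0.9997 for both, limma), where 0% of genes passed after adjustment and 34 had an unadjusted p under 0.05.

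Other protein kinase C genes lay between -0.12 and 0.42 in P522R minus 5xFAD. Of 9 listed, 5 were measured. All 5 lie on the larger panel and Prkca and Prkcb on the smaller, each panel with a scaling constant and depth of its own, so this comparison runs across panels. The median P522R difference was 0.11 on the larger panel and 0.03 on the smaller. With each panel of each mouse centred on its median, Prkca was at -1.09, Prkcb at -0.93 and the other 5 between -0.17 and 0.37. In P522R mice 2 were called higher, 1 lower and 2 were not called, where 40.5% of all genes were higher and 24.9% lower, and their median difference was 0.05. Prkcd and Prkce encode enzymes that respond to diacylglycerol without calcium. Prkcd was higher by 0.42 (SE 0.10, adjusted p = 0.000405, limma) and Prkce by 0.12 (SE 0.05, adjusted p = 0.0216, limma), the latter not called in 4 of 11 alternatives, among them median centring (0.09, adjusted p = 0.0834). Prkcz, an atypical form that needs neither, was lower on average over the sexes, at -0.12 (SE 0.04, adjusted p = 0.00838, limma). The sexes went opposite ways, at 0.13 in females and -0.36 in males. The averaged call ended after centring on housekeeping genes (-0.15, adjusted p = 0.152). Prkcq, known best from T cells, and Prkci, the other atypical gene, differed by 0.05 and 0.04 with no call.

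**Figure D2:**
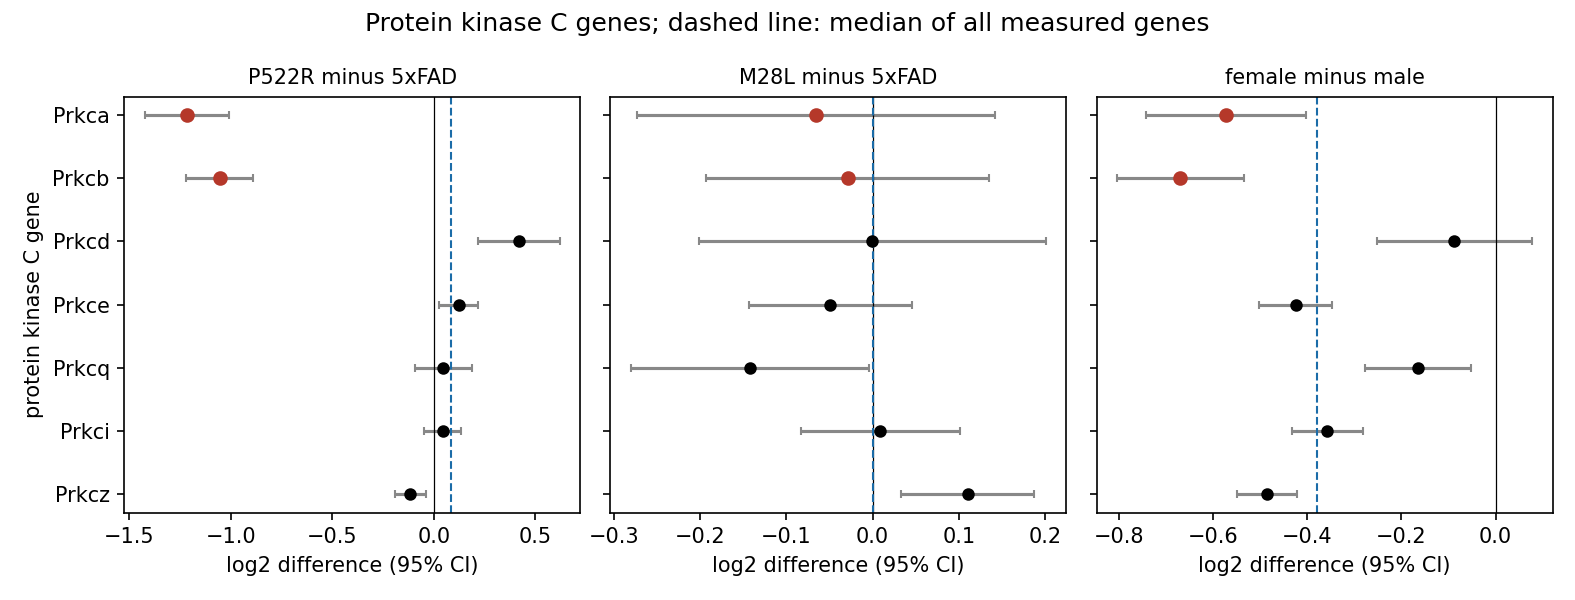
Log2 difference (x axes, with 95% interval) of 7 measured protein kinase C genes (y axis) in 3 comparisons, with Prkca and Prkcb in red and the median of all genes as a dashed line. In P522R minus 5xFAD, Prkca at -1.21 and Prkcb at -1.05 lie below the other 5 genes, which are on the other panel and lie between -0.12 and 0.42.

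In the M28L comparison none of the 5 was called, against 10.3% of all genes. The lowest adjusted p was that of Prkcz, at 0.11 (adjusted p = 0.0570, limma), where all 12 M28L mice lay above the 5xFAD mean of their sex. Prkcz was called under 6 of 13 alternatives, among them centring within each panel (0.17, adjusted p = 0.00387) and centring on housekeeping genes (0.28, adjusted p = 0.0206). Prkcq was at -0.14 (adjusted p = 0.202, limma), with all 12 M28L mice below the 5xFAD mean of their sex. It was called under 0 of 13 alternatives, and its sign turned after centring on housekeeping genes (0.03). Of these 12 mice 3 lay below every 5xFAD mouse of their sex for Prkcq, and 8 lay above every such mouse for Prkcz. How many of all genes put all 12 mice on the same side was not counted. In females against males 4 of the 5 were called lower and Prkcd was not, and the median was -0.36 against -0.38 over all genes. After median centring Prkcq was higher in females, at 0.16, and Prkcd at 0.24, so the direction of these 2 depended on the scaling. The call for Prkci ended after median centring (-0.03, adjusted p = 0.477). The P522R difference depended on sex for 2 of the 5, against 20.9% of all genes. It was 0.30 in females and -0.06 in males for Prkce, and 0.13 and -0.36 for Prkcz. Their differences between the sexes were 0.36 (adjusted p = 0.00557, limma) and 0.49 (adjusted p = 2.28e-05).

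Enzymes that make and remove diacylglycerol and its lipid partners were called in both directions in P522R mice. Of 37 listed genes 15 were measured, and 8 were called higher, 5 lower and 2 were not called, where 40.5% of all genes were higher and 24.9% lower. The list's median was 0.11 against 0.08 over all genes. Dagla, the lipase that turns diacylglycerol into the endocannabinoid 2-arachidonoylglycerol, was higher by 0.70 (SE 0.07, adjusted p = 1.45e-10, limma). Inpp5f, a phosphoinositide phosphatase, was lower, at -0.83 (SE 0.09, adjusted p = 1.40e-09), as were Pik3r1, the regulatory subunit of phosphatidylinositol 3-kinase, at -0.76 (SE 0.07, adjusted p = 8.51e-11), and Plcl2, a phospholipase C-like protein without lipase activity, at -0.45 (SE 0.07, adjusted p = 4.80e-07). In M28L mice 1 of the 15 was called, against 10.3% of all genes. It was Plcb4, a phospholipase C beta, at -0.12 (adjusted p = 0.0443, limma), and its sign turned to 0.04 when values were centred on housekeeping genes. In females against males 14 of 15 were called lower, as were 83.7% of all genes.

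Upstream, Gq-coupled receptors and G proteins activate phospholipase C beta. Of 31 listed 9 were measured, and in P522R mice 4 were called higher, 3 lower and 2 were not called, shares near the 40.5% and 24.9% of all genes, with a median of 0.13 against 0.08. P2ry1, a receptor for ADP, was higher by 0.58 (SE 0.08, adjusted p = 4.29e-08, limma) and Chrm5, a muscarinic receptor of low level here, by 0.95 (SE 0.18, adjusted p = 1.53e-05), a value that a pseudocount of 20 reduced to 0.46. Gnaq, the Gq alpha subunit, was lower, at -0.62 (SE 0.09, adjusted p = 1.29e-07) and Nts, the ligand neurotensin, at -0.55 (SE 0.13, adjusted p = 0.000399). In M28L mice 2 of the 9 were called higher and 1 lower, against 4.66% and 5.61% of all genes. P2ry1 was higher by 0.23 (adjusted p = 0.0492, limma) and Lpar1, a lysophosphatidic acid receptor, by 0.20 (adjusted p = 0.0412), while Chrm3, a muscarinic receptor, was lower, at -0.20 (adjusted p = 0.0233). After centring within each panel the calls for Lpar1 and Chrm3 ended, and that for P2ry1 ended after median centring (adjusted p = 0.0550).

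Immune receptors and adaptors stand upstream of phospholipase C gamma. Of 24 listed 6 were measured. In M28L mice 3 were called lower and none higher, against 5.61% lower and 4.66% higher over all genes. The median was -0.35 against 0.0006 over all genes. The 3 were Clec7a, a receptor for fungal glucans that marks plaque-associated microglia, at -0.88 (SE 0.16, adjusted p = 0.000351, limma), Tyrobp, the adaptor of TREM2, at -0.45 (SE 0.12, adjusted p = 0.00862) and Trem2 at -0.43 (SE 0.12, adjusted p = 0.0227). Of 19 microglia markers 5 were called lower and 1 higher in the same comparison. The marker sum ran from 20714 to 28699 in 5xFAD females and from 18040.5 to 20577 in M28L females, which did not overlap. In males it ran from 18492 to 24443 in 5xFAD and from 14498 to 22147 in M28L mice, which overlapped. The part of this sum in the 3 calls was not tested. With the M28L mice limited to those of index 1 to 3 in the labels, the calls for Tyrobp and Trem2 ended (adjusted p = 0.0978 and 0.132), and without sex in the model all 3 ended (0.0620 for Clec7a, 0.132 for Tyrobp and 0.0895 for Trem2). In P522R mice 2 of the 6 were called lower, against 24.9% of all genes, Clec7a at -0.54 (adjusted p = 0.00421, limma) and Trem2 at -0.31 (adjusted p = 0.0309). Csf1r, the receptor for colony-stimulating factor 1, was higher by 0.23 (adjusted p = 0.0429) and Fyn, a Src-family kinase, by 0.08 (adjusted p = 0.0102), and both of these calls ended after median centring (adjusted p = 0.0739 and 0.148). In females 4 of the 6 were called higher and 2 lower, against 2.69% and 83.7% of all genes, among them Clec7a at 0.99 and Tyrobp at 0.49.

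Substrates and effectors of protein kinase C were likewise called both ways in P522R mice. Of 28 listed 15 were measured, and 8 were called higher, 5 lower and 2 were not called, against 40.5% higher and 24.9% lower over all genes. The median was 0.13. Grin1, the obligatory subunit of the NMDA receptor, was higher by 0.63 (SE 0.09, adjusted p = 2.06e-07, limma) and Braf, a kinase of the MAP kinase cascade, by 0.47 (SE 0.05, adjusted p = 7.48e-11). Unc13a, a diacylglycerol-binding priming factor of synaptic vesicles, was lower, at -0.76 (SE 0.06, adjusted p = 7.60e-13) and Map2k2, a kinase below Braf, at -0.61 (SE 0.06, adjusted p = 3.81e-10). In M28L mice 1 of the 15 was called, against 10.3% of all genes. It was Mapk3, the kinase ERK1, higher by 0.16 (adjusted p = 0.0219, limma), a call that ended after centring within each panel (0.06, adjusted p = 0.398). All 15 were called lower in females, as were 83.7% of all genes, with a median of -0.28 that lay above the -0.38 of all genes.

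Among genes of calcium signalling, 14 of 19 listed were measured, with 6 called higher, 4 lower and 4 not called in P522R mice, shares near the 40.5% and 24.9% of all genes, and a median of 0.06. Ryr2, a calcium release channel, and Atp2b3, a plasma membrane calcium pump, were each higher by 0.58 (SE 0.06, adjusted p = 6.42e-11 and 2.71e-10, limma). Ryr3, of the same channel family as Ryr2, was higher by 0.45 (SE 0.08, adjusted p = 1.24e-05). Ppp3ca, a calcineurin catalytic subunit, was lower, at -0.56 (SE 0.07, adjusted p = 4.75e-09). Of other kinases of the AGC class, to which protein kinase C belongs, and their subunits, 8 of 19 listed were measured, with 2 called higher, 2 lower and 4 not called, set against the same shares, and a median of 0.01. Akt2, a kinase of the insulin pathway, was lower, at -0.21 (SE 0.08, adjusted p = 0.0169, limma), a call that ended after centring within each panel (adjusted p = 0.297). Prkar1a, a regulatory subunit of protein kinase A, was lower, at -0.09 (SE 0.03, adjusted p = 0.0171), a call that ended after centring on housekeeping genes (-0.12, adjusted p = 0.183). Prkacb, a catalytic subunit of protein kinase A, was higher by 0.33 (SE 0.04, adjusted p = 3.90e-08) and Pdpk1, the kinase that phosphorylates the activation loop of many AGC kinases, by 0.11 (SE 0.04, adjusted p = 0.0127), the latter no longer called after median centring (0.07, adjusted p = 0.119). In M28L mice 0 of the 14 and 0 of the 8 genes were called, against 10.3% of all genes.

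**Figure D3:**
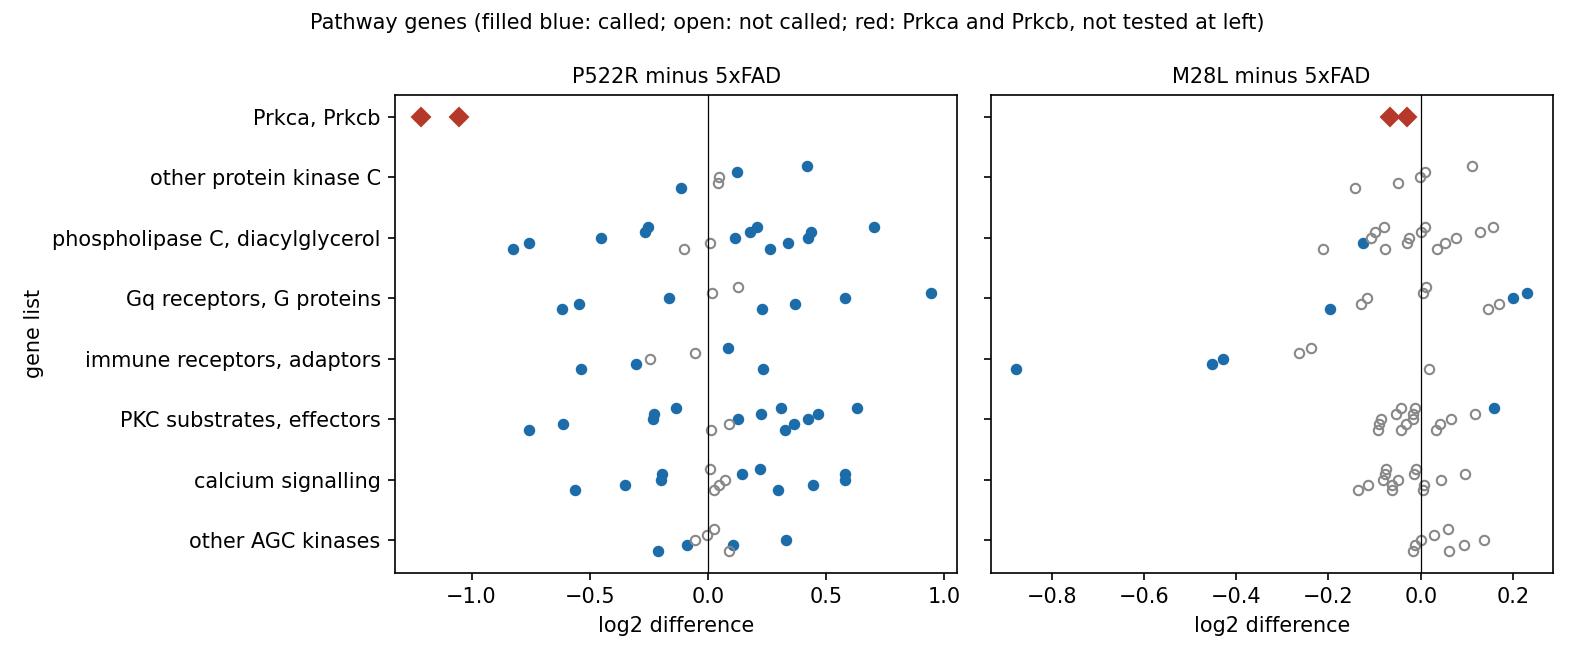
Log2 difference (x axes) of each measured gene of the 7 pathway lists (y axis) for P522R minus 5xFAD (left) and M28L minus 5xFAD (right), with called genes filled, others open and Prkca and Prkcb in red. In the left panel each list holds called genes on both sides of 0, and in the right panel the red symbols lie at -0.07 and -0.03.

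Prkca and Prkcb moved together between mice of the same group. Over the 36 mice, Pearson's r of their deviations from the group means was 0.94 and Spearman's rho was 0.92. Without the pair of mice farthest from the median, the P522R female numbered 54 and the P522R male numbered 29, r was 0.89 over 34 mice. Within single groups of 6 mice r ran from 0.49 in M28L males, which had the smallest spread of Prkcb, to 0.97. Both genes share a panel and a scaling constant, so these are descriptions without a test. The same measure was 0.62 with Prkca and 0.68 with Prkcb for Prkci, and -0.13 and -0.12 for Prkcd. In the same order it was 0.24 and 0.19 for Prkcz, -0.14 and -0.09 for Prkce, and -0.18 and -0.13 for Prkcq.

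**Figure D4:**
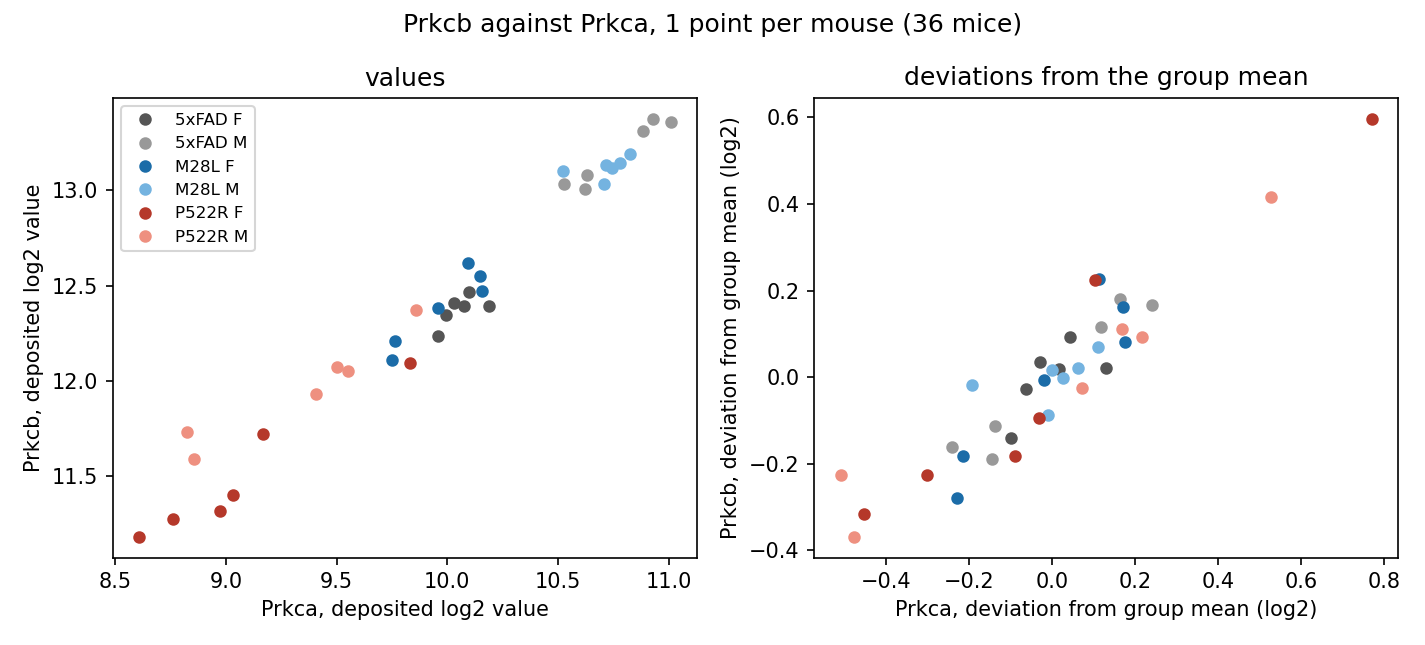
Prkcb (y axes) against Prkca (x axes) for 36 mice, 1 point each, coloured by group, as deposited log2 values (left) and as deviations from the group mean (right). Over all 36 mice the deviations have a Pearson's r of 0.94, and within single groups r runs from 0.49 to 0.97.

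Among 1090 genes with a mean log2 value of at least 5, those most like Prkca over the values of all 36 mice were Prkcb, Lrrc4, Pik3r1, Kif3a and Atf6, with Pearson's r from 0.97 to 0.98. For Prkcb they were Kif3a, Lrrc4, Prkca, Atf6 and Ppp2r5e, with r from 0.98 to 0.99. Lrrc4 encodes a synaptic adhesion protein, Kif3a a kinesin motor subunit, Atf6 a sensor of endoplasmic reticulum stress and Ppp2r5e a subunit of protein phosphatase 2A. The median r over the compared genes was 0.20 for Prkca and 0.29 for Prkcb. These values mix the separate clusters of the groups, so likeness within groups was read as well. By deviations from group means, the genes most like Prkca were Prkcb at 0.94, Insr, the insulin receptor, at 0.89, Lrrc4 at 0.88, and Ube2k, a ubiquitin-conjugating enzyme, and Rdx, the cytoskeletal linker radixin, both at 0.87. For Prkcb they were Prkca at 0.94, Ppp2r5e and Ube2k at 0.89, Kif3a at 0.88 and Insr at 0.86. The median r of deviations was -0.03 for Prkca and 0.03 for Prkcb. P522R minus 5xFAD for these like genes ran from -0.98 for Lrrc4 to -0.71 for Ube2k, and M28L minus 5xFAD from -0.03 for Pik3r1 to 0.05 for Rdx. Genes picked by values over all 36 mice share the group differences of Prkca or Prkcb by that choice. For those genes the ranges are no separate finding. The genes picked by deviations share the panel and scaling constant of Prkca and Prkcb, and the P522R groups had the largest SD of both. Their range too is only a description. All the like genes except Pik3r1 lie on the smaller panel.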

How the data were processed

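The log2 values are those the authors deposited, in a table that joins both nCounter panels. The sources used here do not name their normalization. Cortical RNA was extracted with a PureLink kit, per the labels' protocols. Rows without a gene name, 251 of 1517, were dropped, and 1251 of 1266 symbols matched the GRCm38.p6 gene table, the members among them. On the linear scale 100% of values were whole multiples of a step per panel and mouse, within 0.05 counts, which gave back the counts. Values were tested as deposited with limma 3.58.1 in R 4.3.3: a mean per genotype and sex, eBayes with a trend, two-sided contrasts, and Benjamini-Hochberg over 1266 genes at 0.05. P-values set each difference against the spread between mice, pooled over the groups of the fit. They do not cover differences between runs, which the labels do not name. Named genes were Prkca and Prkcb, other protein kinase C genes, up to 4 called genes with the largest difference per pathway list and comparison, of which the text gives a selection for the sexes, and the 5 most like each member by r. The members, lists and tests were chosen with earlier results of these data known. The fit was tested on simulated data. Plcg2 was not analysed here. Several further genes are left unreported, although they stay in the fits and in the counts over all genes. Alternatives were median, within-panel, quantile and housekeeping centring, a pseudocount of 20, a filter at a mean log2 of 5, eBayes without trend, fits without the other factor or the third genotype, subsets and a block by label index, the mice numbered 14 as their mean, and each mouse left out. The fit of the sexes without P522R mice was chosen after seeing the data.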

Additional observations from a re-analysis of the deposited data

Results flagged for a closer look

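The P522R difference depended on sex, by the test of the difference itself, for 2 protein kinase C genes other than Prkca and Prkcb. P522R minus 5xFAD in females minus that in males was 0.36 for Prkce and 0.49 for Prkcz. Over all genes 20.9% passed, and the median was 0.10. Prkce lost the call after median centring (adjusted p = 0.0575, limma), and both did after centring on housekeeping genes (adjusted p = 0.177 and 0.0608 in that order).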

How the results depend on the processing

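The P522R minus 5xFAD values of Prkca and Prkcb kept their direction under all 11 alternatives, from -1.25 to -1.09 for Prkca and from -1.09 to -0.93 for Prkcb, and leaving out single mice gave -1.29 to -1.16 and -1.11 to -1.02. Prkcb in P522R minus M28L was -0.79 after centring within each panel. M28L minus 5xFAD passed the test under no alternative, but its sign turned for Prkca and Prkcb with centring on 2 housekeeping genes (0.10 and 0.14) and with the label index as a replicate block (0.073 and 0.093). Prkca female minus male was -0.10 after centring within each panel. Without the P522R mice the sex difference was -0.72 and -0.77, called for both genes. The M28L difference between the sexes turned for Prkca with housekeeping centring (0.082) and ran from -0.076 to 0.021 with single mice left out. With single mice left out the P522R difference between the sexes ran from 0.29 to 0.55 for Prkca and from 0.24 to 0.45 for Prkcb. For Prkcb it was 0.45 with the label index as a replicate block. These values are descriptions. Deviations of same-index mice of different genotypes had r from -0.48 to 0.07 over 16 pairs. No M28L mouse of index 7 to 9 was in these pairs, and they cannot tell what the index stands for. Genes called in M28L minus 5xFAD, 130 (59 higher, 71 lower), became 306 with housekeeping centring (276 higher, 30 lower), 30 without sex, 77 when M28L was limited to index 1 to 3, and 88 with the block. Genes called between the sexes, 1094 (34 higher, 1060 lower), split 307 and 423 after median centring, and became 629 within panels (292 and 337), 693 after quantile normalization (341 and 352) and 601 with housekeeping centring (153 and 448). Genes whose P522R difference depended on sex, 264 (199 higher, 65 lower), split 95 and 163 after median centring, 128 and 89 within panels and 111 and 130 after quantile normalization, and became 56 and 0 with housekeeping centring. Without sex in the model the P522R calls ended for Prkce (adjusted p = 0.344, limma), Prkcz (0.420), Pdpk1 (0.148), Prkar1a (0.222), Akt2 (0.194), Fyn (0.430), Csf1r and Clec7a (0.0847 each) and Trem2 (0.0605). The causes were not tested. Housekeeping centring rests on 2 genes, which themselves differed between groups. In M28L minus 5xFAD 1 of the 2 was called lower, and their median difference was -0.17. Centring subtracts this shift from every gene, so it raised every M28L difference, among them those whose sign turned. In P522R mice 1 of the 2 was called higher and 1 lower, and in females 1 was called lower, with a median of -0.26. The 6 mice per group limit the precision.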
